A study of Mus musculus with 4 samples.

Results

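Desert hedgehog signalling was followed through 7 genes, chosen by name: the ligand gene Dhh, the receptor gene Ptch1, the signal transducer gene Smo, the transcription factor genes Gli1, Gli2 and Gli3, and the inhibitor gene Hhip. All 7 were found once each among the 32285 genes of the count tables. Dhh was read in Sertoli-like cells, and the receptor, transducer and target genes in Leydig-like, stromal-like and myoid-like cells. Testicular organoids (TOs) were compared with testes in single-cell RNA sequencing libraries, with 2 TO libraries and 2 testis libraries. The TOs were built from dissociated cells of neonatal ICR mouse testes and cultured in a basement membrane extract, which was taken away part way through the culture. The medium held knockout serum replacement, follicle-stimulating hormone and testosterone. The testes came from young ICR mice. The TO libraries came from separate batches of organoids according to the study's methods, without saying which batch gave which library. The series' design text gave day 28 for both groups, while the TOs' own protocol label gave day 21. The study's supplement calls the testis libraries biological replicates, without naming the animals behind each. P-values of TO against testis within a type measure the spread between these libraries. Contrasts between types had the library as a block. Their p-values measure how far differences between types varied from library to library.

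Hedgehog proteins are secreted signals. In the testis, Desert hedgehog is made by Sertoli cells, the supporting cells inside the tubules, and reaches cells outside the tubules: Leydig cells, which make testosterone, peritubular myoid cells, which contract around the tubules, and other stromal cells. Without ligand, the receptor Ptch1 holds Smo inactive. Binding of the ligand releases Smo, which acts in the primary cilium to turn Gli2 and Gli3 from repressors into activators, and these turn on Gli1, Ptch1 and Hhip. Ptch1 and Hhip both bind the ligand, so their own rise limits the signal, and transcripts of these 3 genes are commonly read as a record of hedgehog reception.

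Unique molecular identifiers (UMIs), each standing for 1 captured transcript, were summed over the cells of a type in each library. Levels are given as CPM, the UMIs of a gene scaled to a fixed total for each sum (1 CPM is 1 UMI in 1000000). The libraries held between 74988295 and 119966959 UMIs in 11826 to 14643 barcodes, and 8713 to 9867 cells per library were kept. Pairs of libraries shared 30 to 55 barcodes. After the limits on genes and UMIs per cell and the removal of doublets, the kept cells held 2955 of 5402 Dhh UMIs in TO replicate 1 and 1455 of 3475 in TO replicate 2. In the testes, 505 of 812 and 240 of 345 Dhh UMIs were kept. Cell types were rebuilt from marker genes, so the suffix "-like" is used throughout. In the sums of Sertoli-like, Leydig-like, stromal-like and myoid-like cells, the summed level of spermatid markers was 1442 to 9854 CPM in the testes and 0.658 to 4.08 CPM in the TOs, and every fold change below was measured over that difference. The testis libraries also differed from each other, with 324015 and 2601789 spermatid marker UMIs in all. In GENCODE vM21, Dhh overlaps Rhebl1, Ptch1 overlaps A930032L01Rik, Smo overlaps Gm13717 and Gli3 overlaps Gm48343 on the same strand, so reads from the shared stretches cannot be told apart.

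Ptch1 and Hhip are standard targets of the pathway, and their upstream sequence is shown because the results below turn on the cell types in which they were read. The 250 bases before the RefSeq transcription start are given in lower case, 5′ to 3′ on the gene's strand, with each GC box (GGGCGG on either strand) in capitals. The Ptch1 window lies at chr13:63565736-63565985 and the Hhip window at chr8:80058009-80058258, both on the minus strand of GRCm38.p6, and neither overlapped an annotated exon. The Hhip window lies outside the GENCODE span of its gene. The Ptch1 window lies inside that of Ptch1 (63508328 to 63573598), so it precedes a RefSeq transcript start and not the whole annotated gene.
Ptch1: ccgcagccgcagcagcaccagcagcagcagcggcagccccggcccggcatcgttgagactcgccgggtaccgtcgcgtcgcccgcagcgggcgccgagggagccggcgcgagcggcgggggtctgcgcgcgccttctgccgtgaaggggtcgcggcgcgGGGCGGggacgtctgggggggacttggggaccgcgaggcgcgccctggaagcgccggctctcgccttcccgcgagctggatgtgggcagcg
Hhip: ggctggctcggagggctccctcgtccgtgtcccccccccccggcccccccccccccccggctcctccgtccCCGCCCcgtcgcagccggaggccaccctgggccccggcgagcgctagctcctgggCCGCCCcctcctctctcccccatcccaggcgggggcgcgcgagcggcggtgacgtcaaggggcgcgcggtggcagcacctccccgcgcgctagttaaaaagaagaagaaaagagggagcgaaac
A GC box was present in the same window of 5 of the 6 members in the RefSeq table and in 32.7% of all 32851 windows. The Gli motif GACCACCCA, searched on both strands, was in 0 of the 6 and in 0.225% of all windows, which says only that these letters are not in these windows.

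The ligand gene was read most in Sertoli-like cells, and its level there was higher in TOs than in testes by less than the limit set for a call. Dhh (chromosome 15, 98891152 to 98898540, minus strand, GRCm38) had 2191 UMIs in 1498 Sertoli-like cells of TO replicate 1 and 992 UMIs in 730 cells of TO replicate 2. The testes gave 240 UMIs in 470 cells and 128 UMIs in 248 cells. As levels these were 156 and 134 CPM in the TOs and 92.9 and 93.9 CPM in the testes. The groups did not overlap, as 2 against 2 libraries of an unchanged gene would also do with a probability of 0.333. This holds wherever groups are said not to overlap, and the share of all genes without overlap was not counted. The log2 difference between TO and testis was 0.67 (SE 0.15, n = 2 libraries per group), with an adjusted p of 0.0107 in edgeR's quasi-likelihood test with Benjamini-Hochberg adjustment. A call needed an adjusted p below 0.01 and a change of more than 2-fold, and 24.5% of the 12695 genes tested in Sertoli-like cells met both (7.36% higher and 17.1% lower in TOs). None of the 3 members tested there was called. All 3 had an unadjusted p below 0.05 in edgeR, as had 6646 of the 12695 genes. DESeq2 called 1 of the 3, Smo, and 3055 of all genes tested there.

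After each cell was thinned to 1500 UMIs, the share of Sertoli-like cells with a Dhh UMI was 19.1% (exact binomial 95% interval 17.1 to 21.2) and 17.9% (15.2 to 20.9) in the TOs. In the testes it was 8.72% (6.33 to 11.7) and 9.68% (6.30 to 14.1). An exact two-sided permutation test over 2 against 2 libraries cannot go below p = 0.333, so no test of the shares could pass. Without thinning the shares were 67.7% and 64.0% in the TOs and 34.7% and 29.8% in the testes, where cells were shallower (median 10086 and 11340 UMIs against 6121 and 3233). Macrophage-like cells, which should lack Dhh, gave thinned shares of 0.743%, 0.288%, 0% and 0%, so the Sertoli-like shares stood above the background. These intervals cover counting error only.

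The Sertoli-like cells of the testes held less RNA of Sertoli markers and more of spermatid markers than those of the TOs. The summed level of the 7 Sertoli markers was 7940 to 8291 CPM in the TOs and 4714 to 4849 CPM in the testes, and spermatid markers reached 2553 and 9854 CPM in the testis sums. Sox9, the transcription factor that defines Sertoli cells, was at 480 and 567 CPM in the TOs and at 216 and 263 CPM in the testes. Relative to Sox9, Dhh was not higher in TOs: there were 32.5 and 23.7 Dhh UMIs per 100 Sox9 UMIs in the TOs and 42.9 and 35.8 in the testes. Both testis libraries held Sertoli-like cells low in Sox9 and high in the spermatid gene Prm1. In testis replicate 2, 103 cells formed a cluster of their own (Dhh 118, Sox9 343, Prm1 915 CPM). Another 132 lay in the leading cluster (Dhh 25.2, Sox9 37.8, Prm1 10709 CPM). In testis replicate 1, 316 cells lay in the leading cluster (Dhh 104, Sox9 243, Prm1 754 CPM). A different cluster held 133 of its cells (Dhh 14.1, Sox9 28.3, Prm1 5148 CPM). The part of these cells in the Dhh difference was not tested. With a background scaled to spermatid markers subtracted in the testes only, the log2 difference of Dhh was 0.22, with an adjusted p of 0.42 in edgeR.

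Sertoli-like cells also held receptor transcripts but almost none of the Gli genes. Ptch1 was at 54.3 and 50.4 CPM in the TOs and 36.8 and 33.0 CPM in the testes (log2 difference 0.61, SE 0.17, adjusted p 0.0255, edgeR). Smo was at 17.1 and 19.6 CPM in the TOs and 7.74 and 2.20 CPM in the testes (log2 difference 1.74, SE 0.42, adjusted p 0.0143, edgeR), and neither passed the call. The groups did not overlap for either gene, which alone carries little weight with 2 libraries per group. Smo rested on 20 and 3 testis UMIs: it was 3.05 and called without testis replicate 1 (adjusted p 0.00898, edgeR), 1.29 and not called without testis replicate 2, and called under 6 of the 18 other settings in all. Gli1, Gli2, Gli3 and Hhip had at most 15 UMIs in any Sertoli-like sum. They were not tested there, because their level in all other cells was at least 5 times as high in TOs or in testes, so that a small amount of RNA from other cells could make up the count.

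**Figure D1:**
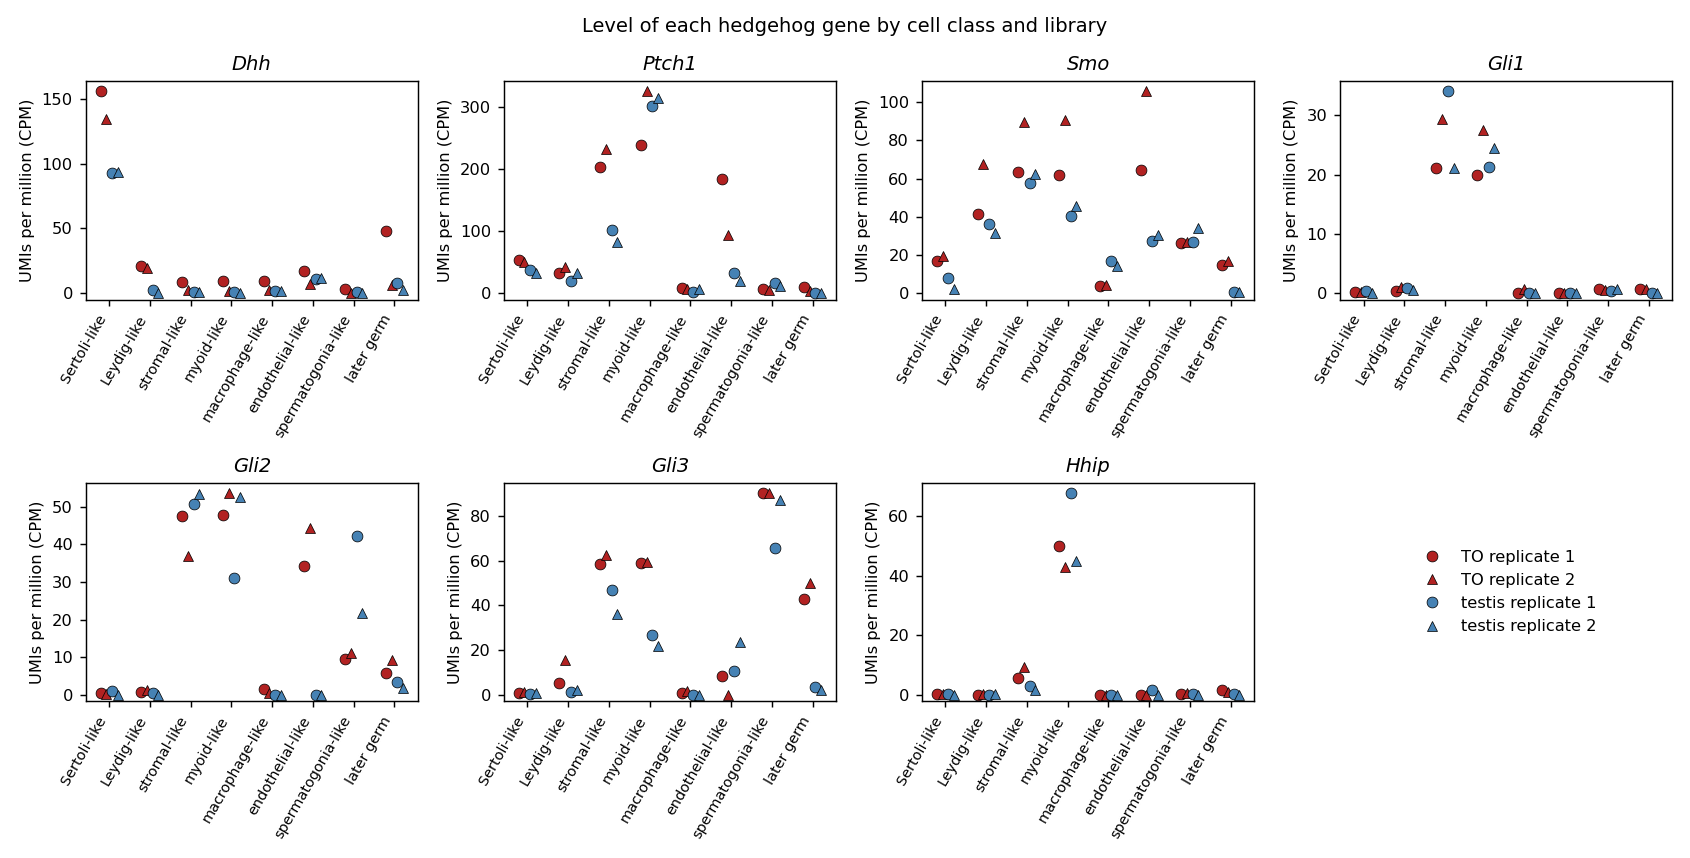
Level of each of the 7 genes (vertical axis, CPM) in 8 cell classes, with 1 point per library (red, TO; blue, testis; circle, replicate 1; triangle, replicate 2). Dhh is highest in Sertoli-like cells, at 134 to 156 CPM in TOs and 92.9 to 93.9 CPM in testes. Gli1 stands out only in stromal-like and myoid-like cells among these classes. Hhip stands out in myoid-like cells, and in stromal-like cells it is at 5.76 to 9.20 CPM in TOs and 1.57 to 2.90 CPM in testes. The endothelial-like cluster is labelled by its testis cells, and Pecam1 had 0 UMIs in its TO cells. The later germ point of TO replicate 1 (48.2 CPM Dhh) holds 124 UMIs, of which 111 came from 52 cells of 1 spermatid-like cluster. Those cells had 573 CPM Sox9 and 0 UMIs of the spermatid genes Tnp1 and Prm1.

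Dhh transcripts were also found in Leydig-like cells of the TOs. There were 388 and 361 Dhh UMIs in 1699 and 1558 Leydig-like TO cells, against 8 and 1 in 568 and 341 testis cells. The levels were 21.3 and 19.3 CPM in the TOs and 2.22 and 0.295 CPM in the testes. Pooled over the libraries, Dhh was 15.8-fold higher in the TOs (exact counting interval 8.25 to 34.6, counting error only). Macrophage-like cells, taken above as background, held Dhh at 9.08 and 2.68 CPM in the TOs. In the testes they held 1.39 and 1.60 CPM, from 1 UMI in each library. The part of background in the fold was not tested. The gene was left out of the test in Leydig-like cells, since its level over all other cells was 6.75 times that of Leydig-like cells in the group where this ratio was larger. With no gene left out, the log2 difference was 3.91 with an adjusted p of 0.0036 in edgeR.

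Dhh was also set against Sertoli genes in each class. For each 100 Sox9 UMIs there were 228 and 392 Dhh UMIs in Leydig-like cells of the TOs, and 32.5 and 23.7 in Sertoli-like cells of the same libraries. In stromal-like TO cells the values were 25.3 and 11.7, and in myoid-like TO cells 36.3 and 11.1. Macrophage-like TO cells held 18 Dhh against 31 Sox9 UMIs in replicate 1 (58.1 per 100) and 12 against 40 in replicate 2. Against Cldn11, a tight junction gene of Sertoli cells, Leydig-like TO cells had 71.2 and 372 Dhh UMIs per 100 and Sertoli-like TO cells 13.6 and 17.4. Both Leydig-like clusters held Dhh: 19.0 and 15.7 CPM in the cluster present in TOs and testes, and 35.2 and 34.1 CPM in the cluster made almost wholly of TO cells. Leydig markers were lower in the TOs, with a summed level of 3808 to 9405 CPM against 13501 to 18812 CPM in the testes, and whether this bears on Dhh was not tested. Leydig-like testis cells held too few Sox9 UMIs (2 and 3) for a ratio, and against Cldn11 those of testis replicate 1 had 72.7 Dhh UMIs per 100, from 8 against 11 UMIs. The part of RNA from Sertoli-like cells in the Dhh of Leydig-like TO cells was not tested.

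**Figure D2:**
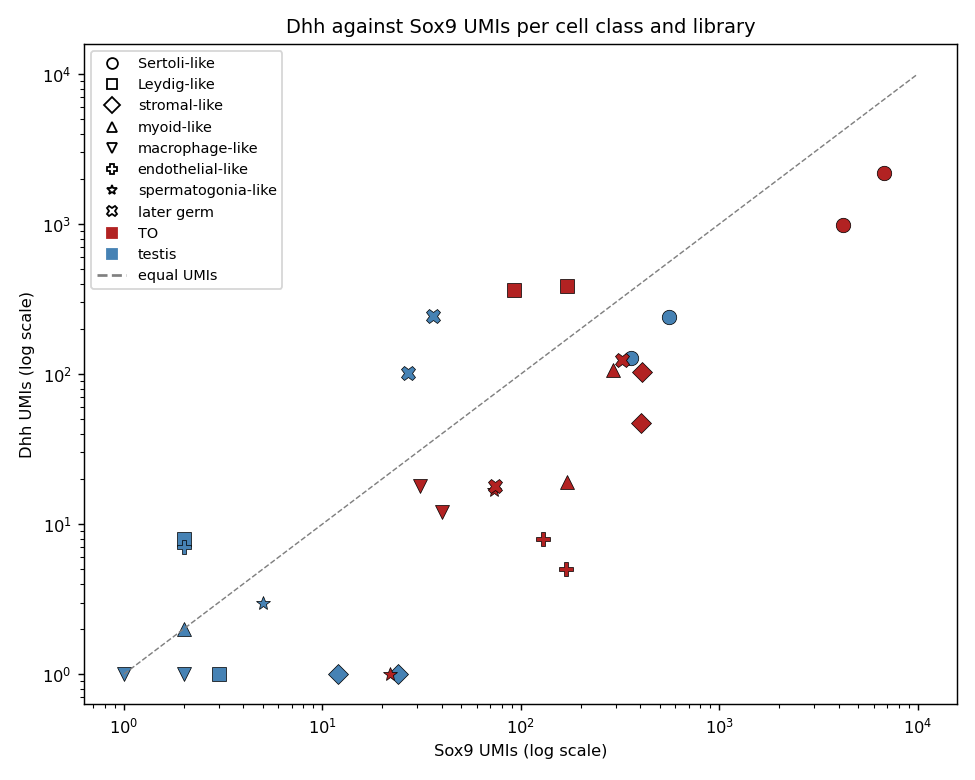
Dhh UMIs (vertical, log scale) against Sox9 UMIs (horizontal, log scale) for 29 sums of a cell class in a library, with 3 sums at 0 for either gene left out; shape marks the class, colour the group, and the dashed line marks equal UMIs. Sertoli-like, stromal-like and myoid-like TO sums lie below the line, while the Leydig-like TO sums, at 388 and 361 Dhh UMIs, lie above it. Also above it are the later germ sums of the testes and, on few UMIs, 2 sums of testis replicate 1. These are Leydig-like (8 Dhh, 2 Sox9 UMIs) and endothelial-like cells (7 Dhh, 2 Sox9 UMIs).

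Leydig-like cells held receptor and transducer transcripts, and their levels did not pass the test between TO and testis. Ptch1 (chromosome 13, 63508328 to 63573598, minus strand) was at 32.8 and 42.9 CPM in Leydig-like cells of the TOs and 20.3 and 32.7 CPM in those of the testes. Smo (chromosome 6, 29735503 to 29761365, plus strand) was at 41.6 and 67.7 CPM in the TOs and 36.4 and 31.5 CPM in the testes. Neither passed the test: the log2 differences were 0.37 (SE 0.29, adjusted p 0.44, edgeR) for Ptch1 and 0.53 (SE 0.29, adjusted p 0.28, edgeR) for Smo. Gli3 (chromosome 13, 15463235 to 15730026, plus strand), which acts mainly as a repressor when no ligand is present, was at 5.54 and 15.4 CPM in the TOs and 1.39 and 2.36 CPM in the testes. Its log2 difference of 2.33 (SE 0.66) had an adjusted p of 0.0838 in edgeR. The groups did not overlap, which alone carries little weight with 2 libraries per group. None of the 3 members tested was called in Leydig-like cells, where 0.983% of 12204 genes were. Of the 3, 1 had an unadjusted p below 0.05 in edgeR, as had 3393 of the 12204 genes. DESeq2 called 0 of the 3 and 1115 of all genes tested there.

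Gli1, Gli2 and Hhip were nearly absent from Leydig-like cells in both groups. Gli1 (chromosome 10, 127329882 to 127341974, minus strand) had 6 and 18 UMIs in the TOs and 3 and 2 in the testes. Gli2 (chromosome 1, 118834132 to 119053619, minus strand) had 16 and 26 UMIs in the TOs and 2 and 0 in the testes, a pooled ratio of 3.97 (counting interval 1.03 to 33.9). Hhip (chromosome 8, 79965851 to 80058006, minus strand) had 0 and 4 UMIs in the TOs and 0 and 1 in the testes, a pooled ratio of 0.757 (0.0749 to 37.3). These sums held 3394127 to 18714447 UMIs, so the levels lay at or below 1.39 CPM. Like Dhh, Gli1, Gli2 and Hhip were left out of the test in Leydig-like cells, and the intervals cover counting error only. No difference between groups was established for any of these genes at this depth. Ptch1 was also lower in Leydig-like cells: stromal-like cells stood above them by 2.44 on the log2 scale within TOs and 1.48 within testes, and myoid-like cells by 2.77 and 3.28 (adjusted p 1.0e-07 to 0.00019, edgeR), all called. The call of 1.48 was lost without testis replicate 1 (1.14, adjusted p 0.0124), in leading clusters alone (1.44, adjusted p 0.0443) and with background subtracted in all libraries (1.88, adjusted p 0.55, edgeR), and the other 3 calls were lost under the last of these.

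Gli1 marked stromal-like and myoid-like cells in both groups, and its level there did not pass the test between TO and testis. In stromal-like cells Gli1 was at 21.1 and 29.3 CPM in the TOs (253 and 659 UMIs) and 34.1 and 21.1 CPM in the testes (47 and 27 UMIs). In myoid-like cells it was at 19.9 and 27.5 CPM in the TOs and 21.4 and 24.5 CPM in the testes. The groups overlapped in both types. The log2 difference was −0.07 (SE 0.35, adjusted p 0.90, edgeR) in stromal-like cells and 0.02 (SE 0.29, adjusted p 0.96, edgeR) in myoid-like cells, and its sign turned under 4 and 10 of the other settings, so no direction is given. In a fit over all 4 types, Gli1 was higher in stromal-like than in Leydig-like cells by 5.19 on the log2 scale within TOs (SE 0.31, adjusted p 2.8e-08, edgeR) and by 4.91 within testes (SE 0.47, adjusted p 2.8e-06, edgeR). Myoid-like cells stood above Leydig-like cells by 5.07 and 4.71. In these contrasts against Leydig-like cells, 22.2% (stromal-like) and 22.8% (myoid-like) of 18017 genes were called within TOs, and 21.6% and 23% within testes. No difference between stromal-like and myoid-like cells was called for Gli1 in either group.

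Ptch1 was higher in TOs than in testes in stromal-like cells but not in myoid-like cells. In stromal-like cells it was at 205 and 233 CPM in the TOs (2451 and 5251 UMIs) and at 103 and 82.2 CPM in the testes (142 and 105 UMIs). The 2 groups were well apart. The log2 difference was 1.30 (SE 0.25, adjusted p 0.0088, edgeR), which was called, as were 16.6% of the 14246 genes tested in stromal-like cells (1.84% higher and 14.8% lower in TOs). The call rested on a narrow margin. Leaving out testis replicate 1 gave 1.53 (adjusted p 0.012), testis replicate 2 gave 1.09 (adjusted p 0.032) and TO replicate 2 gave 1.12 (adjusted p 0.024), none of them called, and with the spermatid-scaled background subtracted in the testes only the value was 0.78 (adjusted p 0.43, edgeR). Ptch1 was the 1 member called of 6 tested there.

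The share of cells moved the same way. After thinning, 735 of 2941 stromal-like cells of TO replicate 1 (interval 23.4 to 26.6%) and 26.2% of those of TO replicate 2 (24.6 to 27.7) had a Ptch1 UMI, against 13.2% (10.6 to 16.2) and 10.3% (7.55 to 13.6) of testis cells. Macrophage-like cells gave 1.49%, 1.01%, 0% and 1.35%. Both stromal-like clusters showed the order. In the larger cluster Ptch1 was at 185 and 226 CPM in the TOs and 84.8 and 72.5 CPM in the testes, and in the smaller cluster, whose cells were shallow in UMIs, at 372 and 442 CPM and at 247 and 191 CPM.

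Myoid-like cells had the highest Ptch1 level of the 4 types in the testes. Ptch1 was at 240 and 326 CPM in myoid-like cells of the TOs (2691 and 3922 UMIs) and at 302 and 315 CPM in those of the testes (566 and 462 UMIs). The groups overlapped, and the log2 difference was −0.15 (SE 0.24, adjusted p 0.65, edgeR). A second cluster, among whose leading genes were Rgs5, a gene of pericytes and vascular smooth muscle, and Tagln, a smooth muscle gene, held 217 and 145 of the testis cells and 59 and 73 of the TO cells. Ptch1 was low in its testis cells, at 24.0 and 12.8 CPM. In the leading myoid-like cluster alone, Ptch1 was at 245 and 338 CPM in the TOs and at 428 and 456 CPM in the testes, with a log2 difference of −0.63 and an adjusted p of 0.094 in edgeR.

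The step in Ptch1 between the 2 interstitial types was seen in the testes and was smaller in the TOs. Within testes, stromal-like cells lay below myoid-like cells by 1.80 on the log2 scale (log2 difference −1.80, SE 0.21, adjusted p 6.9e-05, edgeR), a contrast in which 5.58% of genes were called. Within TOs the difference was −0.34 (SE 0.19, adjusted p 0.55, edgeR; 1.85% of genes called). The test of the difference itself, stromal-like minus myoid-like in TOs minus the same in testes, gave 1.46 (SE 0.28) with an adjusted p of 0.0149 in edgeR, which missed the limit of 0.01 (0.749% of genes were called). Its range was 1.28 to 1.71 when each library was left out. The same test gave 0.96 (adjusted p 0.056; 4.69% of genes called) for stromal-like against Leydig-like cells and −0.51 (adjusted p 0.29; 6.48% of genes called) for myoid-like against Leydig-like cells in edgeR. Markers of the types moved with it: the summed level of myoid markers in stromal-like cells was 652 to 2314 CPM in the TOs and 186 to 233 CPM in the testes, and that of stromal markers in myoid-like cells was 5566 to 7832 CPM in the TOs and 3109 to 3123 CPM in the testes. Acta2, the smooth muscle actin of myoid cells, was at 1614 CPM in stromal-like cells of TO replicate 1 and at 412 CPM in TO replicate 2. The part of this mixing in the result was not tested.

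**Figure D3:**
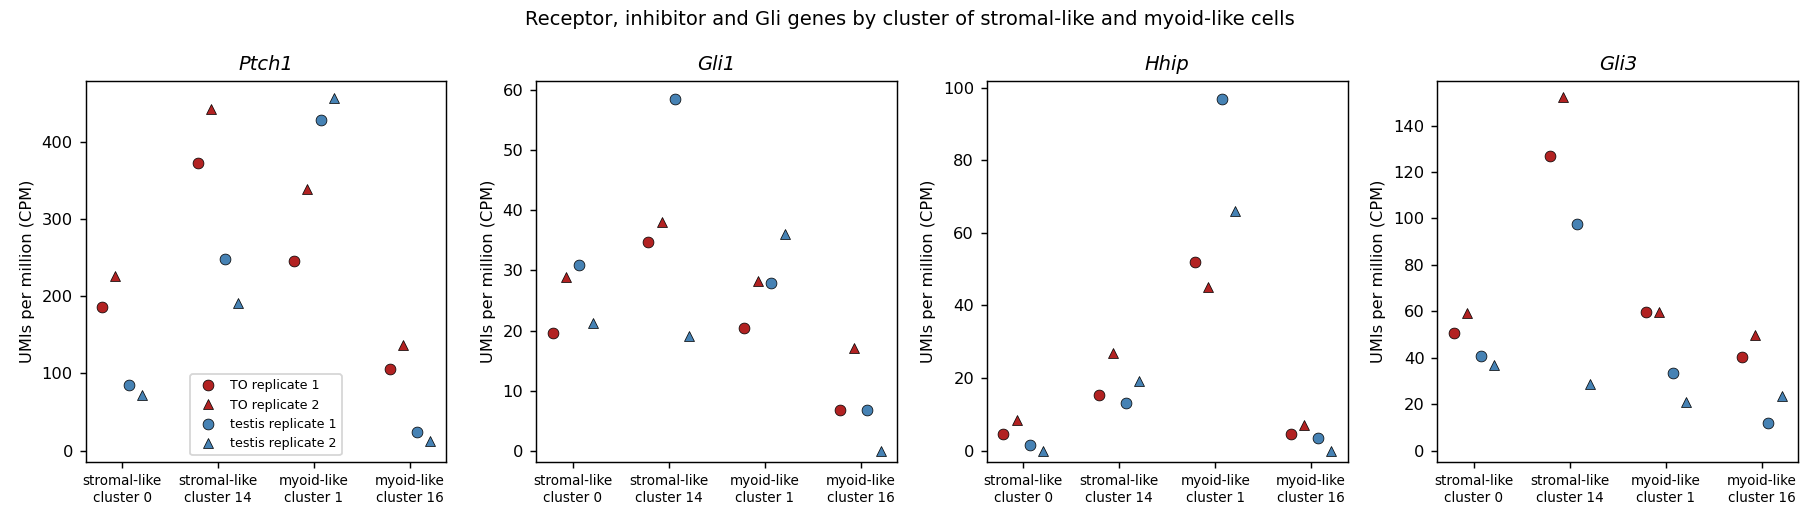
Ptch1, Gli1, Hhip and Gli3 levels (vertical axes, CPM) in the 2 clusters of stromal-like cells and the 2 clusters of myoid-like cells, with 1 point per library. In testes, Ptch1 reaches 428 and 456 CPM in myoid-like cluster 1 against 84.8 and 72.5 CPM in stromal-like cluster 0, and the TO libraries lie closer together, at 245 and 338 CPM against 185 and 226 CPM.

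Hhip was a gene of myoid-like cells in both groups. It was at 49.9 and 42.9 CPM in myoid-like cells of the TOs (561 and 515 UMIs) and at 67.8 and 45.0 CPM in those of the testes (127 and 66 UMIs). The log2 difference was −0.33 (SE 0.26, adjusted p 0.34, edgeR), which turned to 0.02 without testis replicate 1. In stromal-like cells Hhip was at 5.76 and 9.20 CPM in the TOs (69 and 207 UMIs) and at 2.90 and 1.57 CPM in the testes (4 and 2 UMIs). Its log2 difference of 1.80 (SE 0.62) there had an adjusted p of 0.0742 in edgeR and rested on 6 testis UMIs. Stromal-like cells lay below myoid-like cells in both groups, with log2 differences of −2.61 within TOs (SE 0.29, adjusted p 0.00016, edgeR) and −4.71 within testes (SE 0.53, adjusted p 4.6e-05, edgeR). The test of the difference between those gave 2.10 (SE 0.69, adjusted p 0.19, edgeR).

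Among the other transcription factors, Gli3 rose in myoid-like cells of the TOs. It was at 58.9 and 59.3 CPM in the TOs (662 and 712 UMIs) and at 26.7 and 21.8 CPM in the testes (50 and 32 UMIs), without overlap. The log2 difference was 1.24 (SE 0.24, adjusted p 0.0039, edgeR), the 1 call among 6 members tested in myoid-like cells, where 21.7% of 14326 genes were called (3.90% higher and 17.8% lower in TOs). The call was lost in the leading cluster alone (1.08, adjusted p 0.013), without testis replicate 2 (1.07, adjusted p 0.025) and with background subtracted in the testes only (0.78, adjusted p 0.35, edgeR). In stromal-like cells Gli3 was at 58.5 and 62.6 CPM in the TOs and at 47.1 and 36.0 CPM in the testes, with a log2 difference of 0.60 (SE 0.24, adjusted p 0.12, edgeR).

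Gli2, the main activator of the pathway, was at 47.4 and 37.0 CPM in stromal-like cells of the TOs and 50.7 and 53.3 CPM in those of the testes. In myoid-like cells it was at 47.9 and 53.7 CPM in the TOs and 31.0 and 52.5 CPM in the testes. Neither difference passed the test (log2 −0.24 and 0.27, adjusted p 0.43 and 0.46, edgeR). Smo, which every receiving cell needs, was at 63.6 and 89.9 CPM in stromal-like TO cells and 58.0 and 62.7 CPM in testis cells (log2 difference 0.42, adjusted p 0.26, edgeR). In myoid-like cells Smo was at 62.1 and 90.8 CPM in the TOs and 40.6 and 45.6 CPM in the testes, a log2 difference of 0.80 (SE 0.26, adjusted p 0.0432, edgeR) that was not called. Gli2 and Gli3, like Gli1, were higher in stromal-like and in myoid-like cells than in Leydig-like cells within TOs and within testes, by 2.46 to 7.09 on the log2 scale, and Smo was not called in any of these contrasts between types. The Gli2 contrasts within testes rest on 2 and 0 UMIs in Leydig-like cells, and moved between 5.49 and 11.9 (myoid-like) and between 6.16 and 11.8 (stromal-like) when 1 library was left out. Within testes the Gli1, Gli2 and Gli3 calls against Leydig-like cells were lost with background subtracted in all libraries, and that of Gli3 in myoid-like cells also without testis replicate 1 (3.11, adjusted p 0.0127, edgeR).

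**Figure D4:**
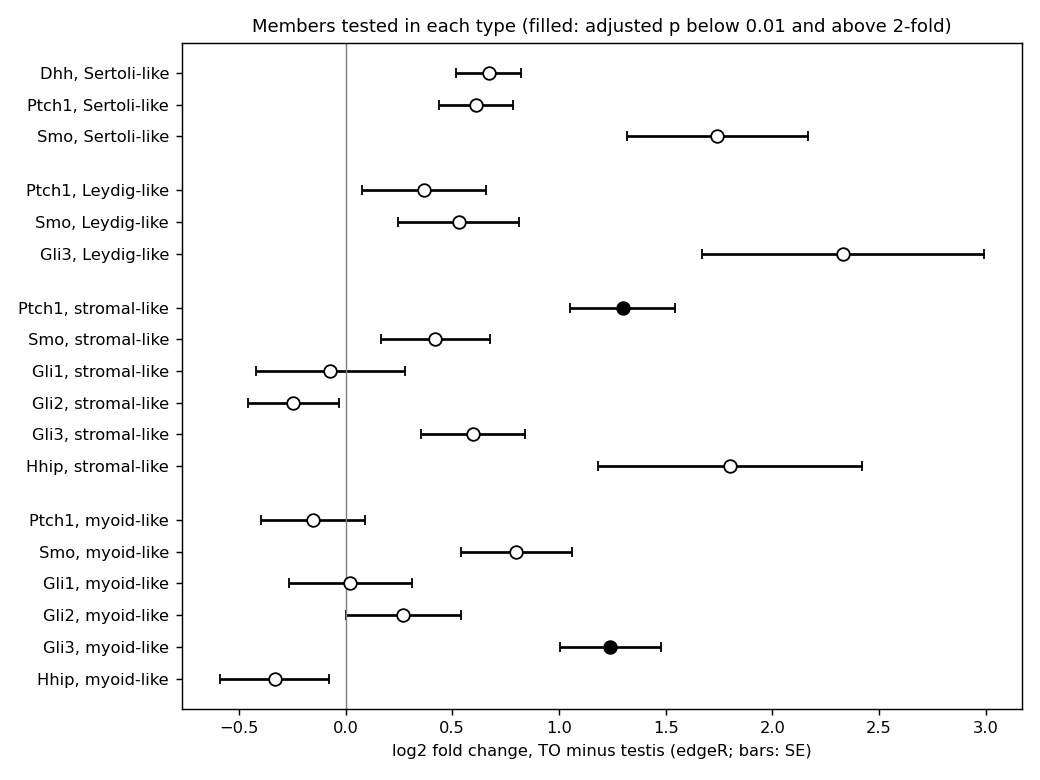
Log2 fold change (horizontal axis, TO minus testis, edgeR) of each member tested in each of 4 types, with the SE as bars and filled points for calls. The 2 calls are Ptch1 in stromal-like cells (1.30) and Gli3 in myoid-like cells (1.24), and Gli1 lies at −0.07 and 0.02.

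Dhh was low in the receiving cells outside the Leydig-like class. Stromal-like cells had 103 and 47 Dhh UMIs in the TOs and 1 in each testis library, and myoid-like cells had 106 and 19 in the TOs and 2 and 0 in the testes. The pooled ratios of 5.78 (counting interval 1.57 to 48.2) and 8.98 (2.44 to 75.0) rest on 2 testis UMIs each. Within TOs, Dhh was lower in stromal-like than in Leydig-like cells by 2.29 on the log2 scale (log2 difference −2.29, SE 0.44, adjusted p 0.00085, edgeR).

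The rest of the pathway was followed with 53 other genes in 5 groups: ligands and their release, receptors and coreceptors, Smo transduction and the cilium, regulation of Gli and Smo, and reported targets. In Sertoli-like cells 32 were tested, of which 7 were higher and 4 lower in TOs (7.36% and 17.1% of all genes tested there), with a median log2 difference of 0.43 against 0.02 over all genes tested. Among the 5 that changed most, Sfrp1, which encodes a secreted Wnt antagonist, was at 51.0 and 37.4 CPM in the TOs and 1.93 and 2.20 CPM in the testes (log2 difference 4.47, adjusted p 8.1e-05, edgeR). Gas1, a coreceptor that helps the ligand bind Ptch1, rose by 2.48 on the log2 scale, the apoptosis inhibitor gene Bcl2 by 2.64 and the cilium gene Evc2 by 3.22. The Bcl2 call was lost without testis replicate 1 (1.68). Evc2 lost its call without TO replicate 1 or testis replicate 2 (2.61) and stood at 9.14 without testis replicate 1. Each of these 2 calls was lost under 5 other settings in all. Stk36, which encodes a kinase related to the fly pathway kinase Fused, fell by 3.48. Outside that rule, Disp1, which releases the lipid-modified ligand from the cell that makes it, was picked after its values were seen: it was at 45.5 and 45.7 CPM in the TOs and 19.7 and 13.9 CPM in the testes (log2 difference 1.43, adjusted p 0.0021, edgeR).

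In myoid-like cells 44 of the other pathway genes were tested, of which 2 were higher and 4 lower in TOs, against 3.90% and 17.8% of all genes tested there (median log2 0.18 against 0.06). Osr1, a mesenchymal transcription factor gene, was at 98.9 and 100 CPM in the TOs and 33.6 and 42.2 CPM in the testes (log2 difference 1.37, adjusted p 0.0013, edgeR). The second gene called higher was Gas1, outside the rule for naming, with a log2 difference of 1.07 whose call was lost under 10 of 19 other settings (0.88 to 1.24 without 1 library). Stk36 fell by 3.36, Scube3, a helper of ligand release, by 3.07, the cilium motor gene Kif3a by 1.24 and the protein kinase A regulatory subunit gene Prkar1a by 1.12. Without testis replicate 1 none of Osr1 (1.22), Gas1 (0.88), Stk36 (−1.97), Scube3 (−2.59), Kif3a (−0.93) and Prkar1a (−0.92) was called, and the call of Scube3 was lost whichever library was left out.

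In stromal-like cells 42 were tested and 1 was lower, Stk36, which fell by 3.82 (median log2 −0.03 against 0.06), where 14.8% of all genes tested were lower. The call was lost without testis replicate 1 (−2.83). In Leydig-like cells 36 were tested and none was called in edgeR (median log2 0.32 against 0.02). Of the 36, 9 had an unadjusted p below 0.05 in edgeR and DESeq2 called 2. Over all 12204 genes tested there, 3393 had such a p and DESeq2 called 1115. Stk36 stood at 84.8 and 27.5 CPM in later germ cells of the testes, which held 66.6% and 80.0% of the kept testis cells, against 10.2 to 41.1 CPM in the 3 testis sums in which it was called and 1.35 to 3.12 CPM in those of the TOs. The part of germ cell RNA in its fall was not tested.

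The genes whose pattern was most like that of Dhh, by Pearson's r of log2(CPM + 1) over 32 sums of a class in a library and among 16962 genes, were Gpr37 (r = 0.92), Tmem255a (0.89), Shbg (0.88), Cst12 (0.88) and Tmem184a (0.87). Those most like Gli1 were Frmd7 (0.97), Gm10824 (0.96), Chst3 (0.96), Syt13 (0.96) and Sprn (0.95). Among the members, Gli1 was closest to Hhip (r = 0.85), then to Gli2 (0.71) and Ptch1 (0.70), while Dhh had r = 0.05 with Ptch1 and −0.39 with Gli1. The sums share libraries and depth, and these values are a description.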

How the data were processed

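The authors made UMI counts per gene and barcode from droplet libraries with Cell Ranger 7.1.0 and the build mm10, as the submitters' processing notes name them, and deposited raw counts in a filtered matrix per library; whether intronic reads were counted is not given in the sources used here. From those counts, a cell was kept if it had between 1000 and 5000 detected genes, no more than 20000 UMIs and a mitochondrial share of 10% or less, and barcodes that Scrublet ranked as doublets were removed in each library, at 0.8% per 1000 barcodes. Cells were integrated with Harmony, clustered with Leiden at a resolution of 1 (scanpy) and named from marker lists. Spermatocyte-like and spermatid-like clusters were joined as later germ cells after their genes were seen. Raw UMIs were summed per library and type and tested with edgeR's quasi-likelihood test with TMM scaling, filterByExpr and Benjamini-Hochberg adjustment over all genes tested. Genes at least 5 times higher in all other cells than in the type, in either group, were left out of that type's test. DESeq2 was an alternative, and the tests were checked on simulated data. Members, lists and tests were chosen with earlier results of these data known. Besides the 7 members, pathway genes called in a type were named, at most 5 per type by absolute fold change, and 5 genes by correlation with Dhh and with Gli1. Positions come from GENCODE vM21. Replicate numbers did not pair the libraries.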

Additional observations from a re-analysis of the deposited data

Results flagged for a closer look

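The results below come from testis cells outside the 4 types compared, in which a member had at least 10 UMIs and 10 CPM in both testis libraries. Levels are means of the 2 testis libraries.

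A cluster of later germ cells held the ligand gene. Dhh was at 47.1 CPM in 658 and 403 testis cells of a cluster with Tnp1, a nuclear protein gene of spermatids, with 195 and 48 Dhh UMIs. Over all later germ cells of the testes there were 675 and 378 Dhh UMIs per 100 Sox9 UMIs, against 42.9 and 35.8 in Sertoli-like cells of the same libraries. Grouped into this cluster were 12 cells of TO replicate 1, with 29126 UMIs in all. They had 0 UMIs of the spermatid markers Tnp1, Prm1, Tex36 and Acrv1, and 275 CPM of Sox9. Their 0 Dhh UMIs therefore say nothing about Dhh in TO spermatids.

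Spermatogonia-like cells of the testes held Gli3 at 76.5 CPM, Gli2 at 31.9 CPM, Smo at 30.6 CPM and Ptch1 at 13.5 CPM. In the TOs the same type had 90.2 and 90.3 CPM of Gli3, while Gli1 was at 0.317 to 0.699 CPM over the 4 libraries. A spermatocyte-like cluster, led by the meiotic recombination genes Dmc1 and Meiob among others, held Gli3 at 32.1 CPM.

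The endothelial-like cluster of the testes held Ptch1 at 26.1 CPM and Smo at 28.9 CPM. Its testis cells had 7 Dhh UMIs in each library, with 2 and 0 Sox9 UMIs.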

How the results depend on the processing

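The 18 tests of a member in a cell type gave 334 values under other settings. Of these, 288 kept their direction and side of the limit, 25 turned in sign, 11 lost the call and 10 gained it. The 2 libraries per group and the small testis sums, of 1276861 UMIs in the smallest, limit what could be called. The replicate number did not pair the libraries (r between same-numbered libraries −0.02 to 0.18). With a replicate block the numbers of genes called were 3425, 149, 3166 and 3919 in Sertoli-like, Leydig-like, stromal-like and myoid-like cells, against 3104, 120, 2371 and 3109 without it, and Ptch1 in stromal-like and Gli3 in myoid-like cells stayed called.

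Leaving out 1 library gave 1984 to 2631, 161 to 407, 1448 to 2380 and 2026 to 3272 genes called in the 4 types. Leaving out genes from 2 times gave 1085, 0, 1020 and 1535. An adjusted p below 0.05 with no fold limit gave 5589, 1144, 3980 and 5103, with Dhh called in Sertoli-like cells (0.67). In Leydig-like cells the count was 1115 with DESeq2, 251 with every gene with a UMI, 2209 with no gene left out, 10 without upper limits, 985 with doublets kept, 57 without Harmony and 185 with thinned sums. Background subtraction was run in all libraries or, added after seeing the data, in the testes only. Both left 0 calls in each type, with 1145 to 3579 genes at an unadjusted p below 0.05 (edgeR). The subtraction left 49.7% to 96.3% of the UMIs of the testis sums. In the TO sums it left 35.9% to 80.3% and rested on 12 to 66 marker UMIs. With so few marker UMIs, subtraction in all libraries cannot measure the background of the TOs. The leading cluster alone, also added later, gave 0 in Sertoli-like cells (3060 at an unadjusted p below 0.05, edgeR). From testis replicate 2 this kept 132 cells (Sox9 37.8, Prm1 10709 CPM). It left out the 103 cells in a cluster of their own (Sox9 343, Prm1 915 CPM).

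Genes called for an effect that differs between types numbered 845 (stromal-like against Leydig-like), 1167 (myoid-like against Leydig-like) and 135 (stromal-like against myoid-like). They were 1861, 2127 and 649 with every gene with a UMI, 73, 92 and 2 with background subtracted, 130, 305 and 26 with it subtracted in the testes only, and 77, 89 and 3 in leading clusters. Leaving out 1 library gave 181 to 729, 431 to 925 and 7 to 147. The difference of Ptch1 between stromal-like and myoid-like cells was called with every gene with a UMI (1.41) and ranged from 1.28 to 1.71 without 1 library.

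The call of Ptch1 in stromal-like cells was lost when genes were left out from 2 times (1.13), with thinned sums (1.17), background subtracted (1.54) or subtracted in the testes only (0.78), with 1.09 to 1.53 without 1 library. Gli3 in myoid-like cells was not called in the leading cluster (1.08), with background subtracted (1.54) or subtracted in the testes only (0.78), with 1.07 to 1.42 without 1 library. Dhh in Sertoli-like cells ranged from 0.59 to 0.74 without 1 library. With background subtracted, the members' contrasts between types called within TOs or within testes lost the call, except those of Gli1, Gli2, Gli3 and Dhh against Leydig-like cells within TOs.

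With background subtracted, the sign turned for Ptch1 (−1.48) and Smo (−0.85) in Sertoli-like cells, Ptch1 (−1.85) in Leydig-like cells, Gli1 (0.18) and Gli2 (0.18) in stromal-like cells, Ptch1 (0.23) and Hhip (0.22) in myoid-like cells, and the Ptch1 difference between myoid-like and Leydig-like cells (3.90 against −0.51). With it subtracted in the testes only, it turned for Sufu in Sertoli-like cells (0.22), Smo in stromal-like cells (−0.087), and Gli1 (−0.55) and Gli2 (−0.17) in myoid-like cells. Gli1 in stromal-like cells also turned with every gene with a UMI (0.028), without TO replicate 1 (0.12) and without testis replicate 1 (0.38), with a range of −0.42 to 0.38. In myoid-like cells Ptch1 ranged from −0.45 to 0.065 without 1 library, turning without TO replicate 1, and Gli2 from −0.063 to 0.64 and Hhip from −0.63 to 0.025, both turning without testis replicate 1. Gli1 in myoid-like cells turned with DESeq2 (−0.0040), genes left out from 2 times (−0.14), the replicate block (−0.0031), no upper limits (−0.067), cells assigned by their own score (−0.062), the leading cluster (−0.42), thinned sums (−0.10), and without TO replicate 2 or testis replicate 1 (−0.29 to 0.25 without 1 library). The causes were not tested.

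Without thinning, shares of cells with a UMI differed between TO and testis by 33.6 percentage points for Dhh in Sertoli-like cells (9.31 when thinned), 18.3 for Dhh in Leydig-like cells (2.61), 33.9 for Ptch1 in stromal-like cells (13.8), 6.14 and 6.69 for Gli1 in stromal-like and myoid-like cells (0.169 and 0.455) and 3.06 for Hhip in stromal-like cells (0.722). In myoid-like cells the sign turned for Ptch1 (18.4 against −0.10) and Hhip (4.30 against −0.50).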

Other observations

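Cells with a Gli1 UMI were set against cells without one in the same library, after thinning each cell to 1500 UMIs. In myoid-like cells of the testes, 10 of 19 and 8 of 13 cells with a Gli1 UMI also had a Ptch1 UMI (52.6% and 61.5%), against 30.1% and 28.5% of cells without one. In myoid-like cells of the TOs the shares were 18.8% and 34.8% with a Gli1 UMI and 26.8% and 33.5% without one. In stromal-like cells they were 36.5% and 28.7% against 24.6% and 26.0% in the TOs, and 17.9% and 7.69% against 12.9% and 10.4% in the testes. The exact 95% intervals of the shares with Gli1 in testis cells were wide (28.9 to 75.6% and 31.6 to 86.1% in myoid-like cells), and cells of 1 library are not replicates. Myoid-like cells also join 2 clusters. In the testes, Ptch1 was at 24.0 and 12.8 CPM and Gli1 at 6.85 and 0 CPM in the Rgs5 cluster. In the leading cluster they were at 428 and 456 CPM and at 27.9 and 36.0 CPM. The Rgs5 cluster held 217 of 693 and 145 of 430 testis cells, and 59 of 2286 and 73 of 1708 TO cells. The part of this mixing in the shares was not tested.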
